A study of Mus musculus with 5 samples.

Results

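Macrophages of the mouse line RAW264.7 that had received lipopolysaccharide (LPS) together with compound 13 were compared with untreated cells of the same line. The comparison uses every gene of the deposited table and 3 of the 5 libraries of the study, namely 1 library of LPS with compound 13 and 2 libraries of the control, which was given PBS. The remaining 2 libraries, the LPS model, were given LPS alone and were used to say which genes belong to the LPS programme. Compound 13 is 5-chloro-6-hydroxymellein, a chlorinated compound from a mangrove fungus, and in the study's cell model LPS was given at 0.1 μg/ml together with 10 μM of a compound for 24 h. The label of the treated library names no compound, the methods do not repeat the doses for the cells that were sequenced, and no library received the compound without LPS, so an action of the compound alone and an action on the LPS response cannot be told apart. The question of the comparison was which part of the LPS programme was still on or still repressed with compound 13 and which genes stood at control level.

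LPS, the endotoxin of Gram-negative bacteria, is bound by CD14 on macrophages and passed to TLR4. One branch of the signal runs through MyD88 to NF-κB and AP-1 and induces chemokines, cytokines and enzymes such as the inducible nitric oxide synthase. The other branch runs through TRIF and IRF3 to interferon β, which acts back on the cell through its receptor and induces antiviral genes whose promoters carry the interferon-stimulated response element (ISRE).

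The table holds log2 FPKM (fragments scaled to transcript length and library depth) of 1489 genes chosen by the submitters by a rule not given in the sources used here. Recovered depths were 17142000 reads with compound 13, 16589000 and 16169000 with LPS alone and 16564000 and 17101000 in the control. The listed genes took 16.82% of the reads with compound 13, 17.0% and 17.14% with LPS alone and 7.99% and 8.21% in the control. Of the macrophage markers looked up, Cd14, Itgam and Fcgr1 are listed, and their summed FPKM was 1441 with compound 13, 1409 and 1381 with LPS alone and 711 and 758 in the control. Most of this sum is Cd14, which LPS itself raised, and Fcgr1 went the other way, so the sum does not measure macrophage content. Adgre1, Cd68, Csf1r and the other macrophage markers looked up are not among the listed genes and were not analysed here. The LPS model libraries stood apart in 77 listed genes in which both held 10 reads or more while no other library exceeded 3, with 40 reads summed over these genes with compound 13, 3529 and 2424 with LPS alone and 23 and 32 in the control. Of the 77, 11 passed the filter for the test, and all 11 fell into the class at control level, which is given with and without them. The labels do not say that replicates were separate cultures, and p-values here reflect no more than the library-to-library spread, which may be technical. With 1 library of compound 13 its differences have no replicate check of their own, and that library is assumed to vary like the others.

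Most of the LPS programme was still on with compound 13. FPKM were put on the log2(FPKM + 1) scale, which understates the change of low genes, and limma was fitted to the 1053 genes that reached an FPKM of 1 with compound 13 or in any 2 libraries. Against control, 717 genes were higher with compound 13 and LPS (68.1% of those tested) and 252 were lower (23.9%) at a Benjamini-Hochberg adjusted p under 0.05, while 84 were not called, so that 92.0% were called in either direction. All 717 lay above both control libraries and all 252 below both, where 71.5% and 26.3% of all tested genes did so. For LPS alone against the same control, 766 genes were higher (72.7%) and 246 lower (23.4%). Since the submitters chose the genes and 96.1% of those tested were called with LPS, these counts describe the selection. The counts of called genes in the lists below are to be read beside the 68.1% higher and 23.9% lower over all tested genes. In bulk RNA, fewer cells of a type and less RNA per cell cannot be told apart.

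A gene was counted as still on when it was called higher than control both with LPS alone and with compound 13, and as still repressed when it was called lower in both. By this rule 713 of the 766 genes raised by LPS were still on (93.1%, or 713 of 755 and 94.4% without the genes read almost only in the LPS model), and 242 of the 246 genes lowered by LPS were still repressed (98.4%). A further 52 genes raised by LPS and 4 lowered by it were not called with compound 13, and 1 gene, Il18, was called in the opposite direction. Another 13 genes were called with compound 13 and LPS but not with LPS alone, 4 higher and 9 lower. The contrasts share the control libraries, so these counts describe the genes and are no test of overlap. The median log2 fold change over all tested genes was 0.82 with compound 13. Rescaling the libraries by the median of ratios or by quantiles, which centres the libraries on each other as though rises and falls were balanced, took this median to 0.02 and 0.13. Whether Il18 and the 13 genes above were called with LPS alone after these rescalings is not given here. The share of higher genes among the calls was 74% in the deposited scale, 50.1% after the median of ratios (358 higher and 357 lower) and 54.4% after quantile rescaling (403 and 338). Under those scalings 331 and 374 of the 713 genes still on were still on, and all 242 genes still repressed were still repressed in both.

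How far each gene was from control was described by its position, (compound 13 − control) / (LPS − control) on the log2(FPKM + 1) scale, where 0 is control level and 1 is the level of LPS alone. Among the 497 genes raised by LPS by at least 1 on the log2 scale, the median position was 0.92 (quartiles 0.81 and 0.98, range −0.44 to 1.5), and 382 of them (76.9%) stood at 0.8 or above. Of these 497 genes, 473 were still on, 19 were at control level and 5 were neither. For the 125 genes lowered by LPS by at least 1 the median position was 0.99 (quartiles 0.92 and 1.04, range 0.58 to 1.33), all 125 were still repressed and 118 (94.4%) stood at 0.8 or above. The difference between these medians was not tested.

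**Figure D1:**
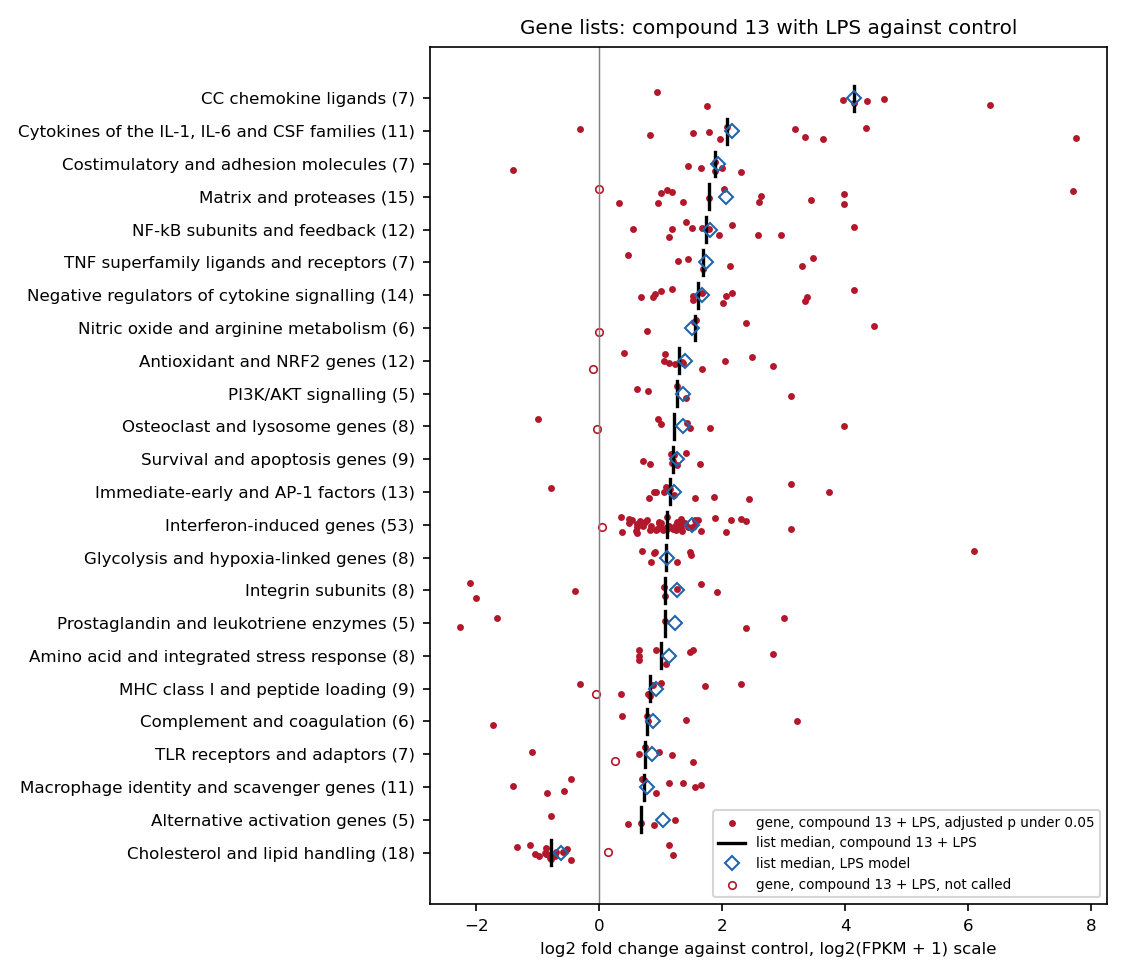
Log2 fold change against control of each tested gene in lists with at least 5 tested members (number in parentheses), on the log2(FPKM + 1) scale. Each point is a gene in the library with compound 13 and LPS, filled where limma called it against control, the black bar is the list median with compound 13 and the open diamond the list median with LPS alone. The CC chemokines have the highest median (4.14) and the cholesterol and lipid genes are the only list below 0 (−0.79). For most lists the 2 medians lie close together, and the interferon-induced genes have 1.11 against 1.51.

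The largest rises above control included mediators and markers of neutrophils and monocytes. Csf3 encodes G-CSF, the growth factor of granulocytes, and had an FPKM of 382 with compound 13, 399.6 and 399.8 with LPS alone and 0.47 and 1.12 in the control. Its log2 fold change against control was 7.76 (standard error 0.21, limma adjusted p = 6.54e-06). In reads this was a ratio of 479 (95% counting interval 348 to 677). The library with compound 13 lay just under the LPS model libraries and far above both control libraries. S100a8, a calcium-binding protein abundant in neutrophils and inflammatory macrophages, had 272 FPKM with compound 13, 333 and 333 with LPS alone and 0.87 and 2.86 in the control (log2 fold change 6.67, standard error 0.41). The stefin genes Stfa3 and Gm5416 and the related Gm5483, members of a cluster of cystatin-type protease inhibitors, had log2 fold changes of 7.71, 6.69 and 8.03. Stefin copies are near-identical and reads may be split between them, so their single values are uncertain. Over the listed genes, 28 had at least 10 reads with compound 13 and none in either control library.

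All 7 tested CC chemokine ligands, which attract monocytes, T cells and other leukocytes, rose against control, with a median log2 fold change of 4.14 beside 0.82 over all tested genes (7 higher after either rescaling). Ccl2, the monocyte attractant MCP-1, had 349 FPKM with compound 13, 364 and 347 with LPS alone and 2.65 and 4.06 in the control. Its log2 fold change was 6.35 (standard error 0.19, limma adjusted p = 8.48e-06). The treated value lay between the LPS model libraries. Ccl3 and Ccl4, the attractants MIP-1α and MIP-1β, stood at 3885 and 846 FPKM with compound 13, and their log2 fold changes were 4.14 and 3.96. Ccl5 and Ccl7 rose by 4.63 and 4.36, and Ccl9 by 1.76. Ccl6 rose least (0.94), with 43 reads with compound 13, 87 and 81 with LPS alone and 7 and 8 in the control, and it was the CC ligand also called lower than with LPS alone (adjusted p = 0.0267). Over all tested genes, 76 (7.22%) were called lower (65 without the genes read almost only in the LPS model) and 4 (0.38%) higher with compound 13 than with LPS alone, and after the median of ratios limma called none (4 and 4 after quantile rescaling).

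Cxcl2, the neutrophil attractant MIP-2, had 294 FPKM with compound 13, 322 and 321 with LPS alone and 2.07 and 3.68 in the control (log2 fold change 6.28, standard error 0.24, limma adjusted p = 1.39e-05). Its proximal promoter, 250 bases before the start site, is shown because it carries an NF-κB motif, and it was chosen after its values were seen. The motif searched was GGGA and TTCC with any pair of bases between them, on both strands. Capitals mark the match, which overlaps itself on the other strand and begins 97 bases before the start site. The sequence is from RefSeq on GRCm38.p6, plus strand, chr5:90903649-90903898.
Cxcl2: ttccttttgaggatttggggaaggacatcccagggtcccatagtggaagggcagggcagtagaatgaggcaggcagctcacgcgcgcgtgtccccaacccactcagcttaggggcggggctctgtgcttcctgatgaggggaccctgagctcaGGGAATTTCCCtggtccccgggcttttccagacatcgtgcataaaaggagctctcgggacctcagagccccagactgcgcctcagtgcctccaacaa
Of all promoters of the RefSeq table, taken from 250 bases before to 50 after the start, 1.47% held this motif, against 2.15% of the promoters of genes still on and 3.49% of those of genes still repressed. The promoters found for Socs3, S100a8 and Stfa3, also raised, did not hold this motif in the same 250 bases. A match is a description of the letters and not a site of binding.

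Other CXC and CX3C ligands were fewer. Cxcl3, a related neutrophil attractant, had 74 reads with compound 13, 118 and 96 with LPS alone and 0 in both control libraries, so it was at least 48.4-fold higher than control against a floor of 3 reads over the control group. Cxcl14, a homeostatic chemokine, was still repressed with 18.97 FPKM with compound 13, 17.9 and 16.4 with LPS alone and 70.6 and 78.4 in the control (log2 fold change −1.92, standard error 0.09). Cxcl1, Cxcl5 and Cx3cl1 had 0 reads with compound 13 and 0 in both controls, but 19 and 17, 15 and 6, and 10 and 15 reads in the LPS model. These 3 ligands lay below the filter and were picked after their values were seen. The receptor gene Ccr1 rose by 2.78, and Cx3cr1, the fractalkine receptor, was still repressed at 52.0 FPKM with compound 13 against 141.1 and 137.3 in the control (−1.4).

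Cytokine genes of the IL-1, IL-6 and CSF families were still on in 10 of the 11 tested (10 after the median of ratios, 9 after quantiles). The list median was 2.08 on the log2(FPKM + 1) scale. It was 3.19 with Il1b and Il1f6, which had no reads in the control, put at the log2 of their lower read bounds. That value mixes read ratios with the log2(FPKM + 1) scale and is not comparable with 2.08. Il1b, the precursor of interleukin 1β, had 374 reads with compound 13, 463 and 453 with LPS alone and 0 in either control library, at least 245-fold above control. Il1a, its relative, had 299 reads with compound 13, 386 and 391 with LPS alone and 3 and 2 in the control. Both treated values were below the LPS model and far above the control. Il1rn, which encodes the antagonist of the IL-1 receptor, stood at 97.8 FPKM with compound 13, 109 and 113 with LPS alone and 9.35 and 8.25 in the control (log2 fold change 3.34, standard error 0.08). Il1f9 rose by 4.34 and Osm by 1.96. Il6 itself was too low for the test, with 11 reads with compound 13, 10 and 10 with LPS alone and 0 and 0 in the control, at least 7.20-fold above control by the floor. Il6 was not tested against LPS alone, and at this depth only a large difference could have been seen.

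Il18, the precursor of interleukin 18, was the exception of this list. It had 5.88 FPKM with compound 13, 8.89 and 9.54 with LPS alone and 7.90 and 7.32 in the control. The treated library was the lowest of the 5 while the LPS model libraries were the highest. Its log2 fold change against control was −0.32 with compound 13 (standard error 0.08, limma adjusted p = 0.0143) and 0.25 with LPS alone, and it was also called lower than with LPS alone (adjusted p = 0.0308). The ratio of reads to control was 0.774 with a 95% counting interval of 0.611 to 0.974. Such intervals cover counting error only. The opposite directions of Il18 hold for the deposited scale. Its rise of 0.25 was smaller than the rescaling shift of the median with compound 13 (0.82 to 0.02 and 0.13). Its change with LPS alone after rescaling is not given here.

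Tumour necrosis factor and its family were still on. Tnf had 486 FPKM with compound 13, 435 and 434 with LPS alone and 43.1 and 42.6 in the control, so that the treated library was the highest of the 5. Its log2 fold change against control was 3.48 (standard error 0.04, limma adjusted p = 8.85e-07), and against LPS alone it was not called (adjusted p = 0.0738). All 7 tested TNF superfamily genes were higher than control (6 after either rescaling), with a median of 1.69 and a median position of 1.00. Among them Tnfrsf1b, the type 2 TNF receptor, had a log2 fold change of 3.30, Ltb, lymphotoxin β, of 2.12 and Cd40, a costimulatory receptor, of 1.45.

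Genes of nitric oxide and arginine metabolism were higher than control in 5 of 6 tested (4 after either rescaling), where 68.1% of all tested genes were. Nos2, the inducible nitric oxide synthase, had 21.4 FPKM with compound 13, 24.5 and 22.7 with LPS alone and 0 and 0.0266 in the control. Its 1622 reads with compound 13 stood against 0 and 2 in the control, a ratio of 1593 with a 95% counting interval of 440 to 13163. The treated value was 0.97 of the way from control to LPS alone on the log2 scale. Ass1, which regenerates arginine from citrulline, and Gch1, which makes the cofactor tetrahydrobiopterin, rose by 1.58 and 1.54, and Odc1, the first enzyme of polyamine synthesis, by 2.38. The sixth gene, Cav1, is described with the genes at control level.

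Of the prostaglandin and leukotriene genes 3 of 5 tested were higher and 2 lower (2 and 2 after the median of ratios, 3 and 2 after quantile rescaling). Of all tested genes 68.1% were higher and 23.9% lower. Ptgs2, the inducible cyclooxygenase, had 137 FPKM with compound 13, 158 and 161 with LPS alone and 16.1 and 16.2 in the control (log2 fold change 3.01, standard error 0.04), and Ptges, the prostaglandin E synthase, rose by 2.39. Hpgd, which degrades prostaglandins, had 1 read with compound 13, 0 and 1 with LPS alone and 96 and 131 in the control, with the largest fall of any gene tested (−2.26 on the log2 scale). Alox5, the enzyme that starts leukotriene synthesis, was still repressed with 9.90 FPKM with compound 13, 9.58 and 10.3 with LPS alone and 33.8 and 33.2 in the control (−1.66).

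**Figure D2:**
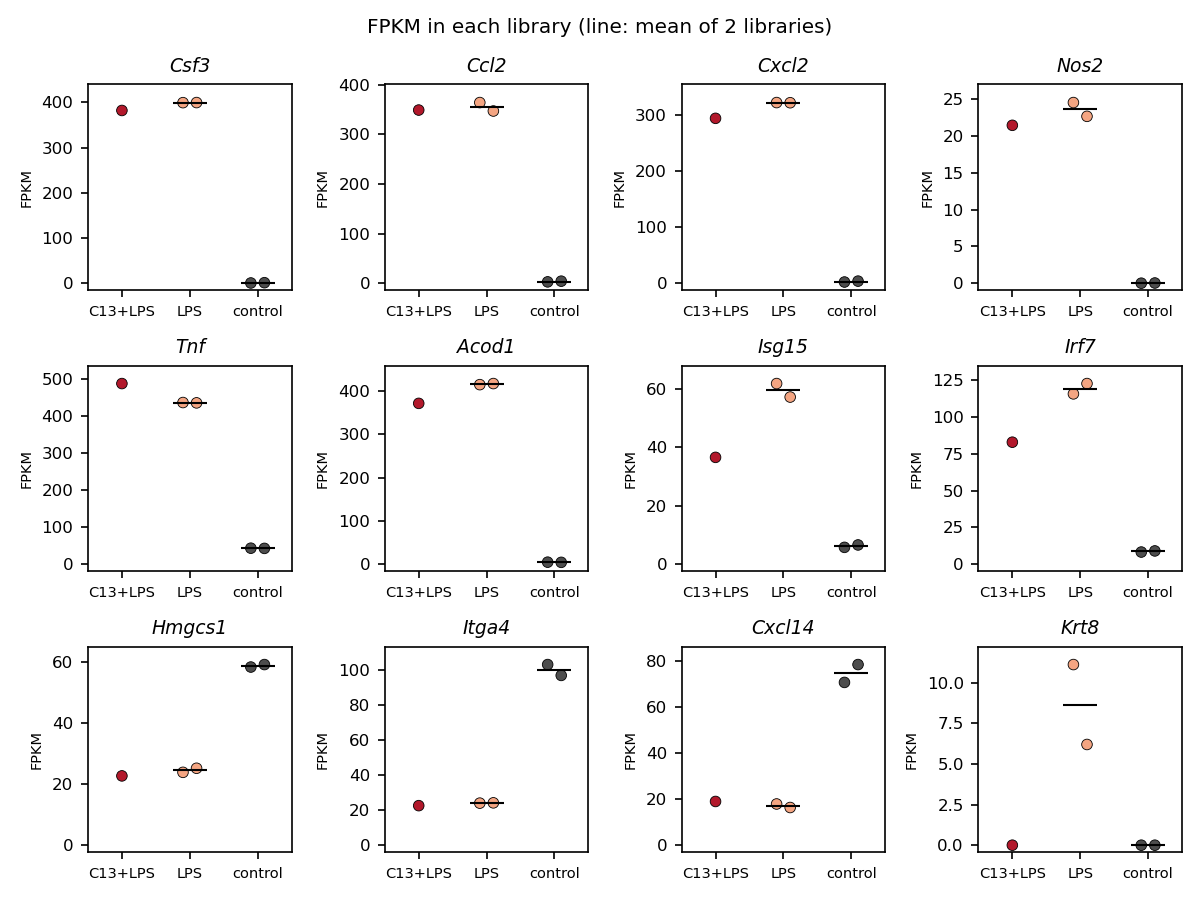
FPKM of 12 genes in each library, with compound 13 and LPS (C13+LPS, 1 library) on the left, the LPS model (LPS, 2 libraries) in the middle and the control (2 libraries) on the right, and a line at the mean of each pair. Each panel has its own linear axis. Csf3, Ccl2, Cxcl2, Nos2, Tnf and Acod1 stand near the LPS model, Isg15 and Irf7 stand between the groups, Hmgcs1, Itga4 and Cxcl14 are as low as in the LPS model, and Krt8 is at 0 with compound 13 and in the control.

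The feedback on the signal was still on as well. All 12 tested NF-κB subunit and feedback genes were higher than control (10 and 11 after the rescalings), with a median log2 fold change of 1.73. Nfkbia, the inhibitor IκBα, had 140 FPKM with compound 13, 128 and 135 with LPS alone and 46.2 and 50.6 in the control, so that the treated library was the highest. Socs3, which blocks signalling of IL-6 and G-CSF receptors, had 125 FPKM with compound 13, 131 and 136 with LPS alone and 5.97 and 6.39 in the control (log2 fold change 4.14, standard error 0.06). Nfkbiz, a nuclear cofactor of NF-κB, and Zc3h12a, the RNase regnase-1, rose by 2.58 and 2.96. All 14 negative regulators of cytokine signalling were higher (10 after either rescaling), with a median of 1.61. Among these were the phosphatases of MAP kinases Dusp5 (3.38), Dusp1 (2.16) and Dusp6 (2.07). Zfp36, which destabilizes cytokine mRNA, stood at 24.4 FPKM with compound 13, 29.9 and 30.3 with LPS alone and 10.2 and 10.1 in the control, and was called lower than with LPS alone (adjusted p = 0.0466).

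Immediate-early and AP-1 genes rose in 12 of 13 tested and Klf4 fell (−0.78), with a median of 1.15 (5 higher and 1 lower after the median of ratios, 7 and 2 after quantile rescaling). Ier3, an early survival gene, had 344 FPKM with compound 13, 365 and 353 with LPS alone and 23.1 and 26.7 in the control. Egr1, a zinc finger factor, had 24.9 FPKM with compound 13, 22.1 and 22.96 with LPS alone and 3.84 and 3.72 in the control (log2 fold change 2.44, standard error 0.06). Egr1, Jun and Atf3 were highest in the treated library, whereas Klf6, Maff and Myc were lower there than in either LPS model library. Myc, a driver of cell growth, stood at 31.4 FPKM with compound 13, 36.3 and 37.8 with LPS alone and 2.98 and 2.48 in the control, a log2 fold change of 3.12 (standard error 0.10).

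Of the list of TLR receptors and adaptors 5 of 7 tested were higher, 1 lower and 1 not called, near the 68.1% higher of all tested genes, and 2 were higher and 2 lower after the median of ratios (2 and 1 after quantile rescaling). Their median of 0.75 became −0.14 after the median of ratios. Cd14, which hands LPS to TLR4, had 1396 FPKM with compound 13, 1360 and 1331 with LPS alone and 685 and 732 in the control (log2 fold change 0.98, but −0.07 after the median of ratios). Tlr8, a sensor of single-stranded RNA, had 23 reads with compound 13, 60 and 53 with LPS alone and 118 and 116 in the control. It was thus repressed further with compound 13 than with LPS alone (log2 fold changes against control −1.10 and −0.58, adjusted p = 0.0489 between them). Tlr4 is not among the listed genes and was not analysed here, and the same holds for Il10, Il4, Arg1 and for the genes of PI3K subunits and AKT.

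Of the list of PI3K/AKT signalling, a kinase cascade of growth and survival, 5 of 40 genes are listed and all 5 were higher than control with compound 13 (3 higher and 2 lower after the median of ratios, 3 and 1 after quantile rescaling). Besides Myc these were Bcl2l1, which encodes the survival protein BCL-XL, at 32.3 FPKM with compound 13, 33.4 and 33.7 with LPS alone and 11.7 and 11.5 in the control, the pro-apoptotic Bcl2l11 (log2 fold change 1.26), Eif4ebp1, a brake on translation (0.62), and Pik3ap1, an adaptor of PI3K (0.80). Pik3ap1 turned to −0.23 and −0.41 under the rescalings. Eif4ebp1 was the other gene lower than control after the median of ratios. Over all tested genes 68.1% were higher in the deposited scale, so the count of 5 says little about this list. All 9 tested survival and apoptosis genes were higher than control (7 after either rescaling), and their median position was 0.95. The Bcl2a1 copies among them share sequence, so reads may be split between them. None of the 55 cell cycle genes looked up is listed.

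Interferon-induced genes were still on at a level below LPS alone in the deposited scale. Of 53 tested, 52 were higher than control and Ifit2 was not called (log2 fold change 0.04, adjusted p = 0.687), with a median of 1.11 with compound 13 and 1.51 with LPS alone. Rescaled by the median of ratios, 26 of them lay above and 7 below control by the test (median 0.28), and after quantile rescaling 35 and 4. The treated library lay below both LPS model libraries for 49 of the 53, where 62.5% of all tested genes did, and 17 of the 53 were called lower than with LPS alone, beside 7.22% of all tested genes. After the median of ratios none of the 53 was called, as none of all tested genes was. The median log2 difference from LPS alone was −0.32 for this list and −0.08 for all tested genes, and −0.16 and 0.05 after the median of ratios.

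Isg15, a ubiquitin-like protein of the antiviral response, had 36.5 FPKM with compound 13, 61.7 and 57.1 with LPS alone and 5.75 and 6.57 in the control. Its log2 fold change against control was 2.39 (standard error 0.09, limma adjusted p = 1.49e-05) with compound 13 and 3.08 with LPS alone. Irf7, the factor that amplifies interferon production, had 82.9 FPKM with compound 13, 116 and 123 with LPS alone and 8.25 and 9.01 in the control (3.12, standard error 0.07, against 3.64 with LPS alone). For both genes the treated library lay between the groups and overlapped neither. Zbp1, a sensor of Z-form nucleic acid, had 5.98 FPKM with compound 13, 11.4 and 11.7 with LPS alone and 0.975 and 0.795 in the control. Oasl2, of the family of oligoadenylate synthetases, had 5.10 FPKM with compound 13, 9.44 and 9.80 with LPS alone and 1.01 and 1.26 in the control. Zbp1 stood at a position of 0.69 and Oasl2 at 0.65.

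Genes of the Ifit family, which bind viral RNA, differed among themselves. Ifit1 had 9.93 FPKM with compound 13, 16.0 and 16.3 with LPS alone and 2.54 and 2.69 in the control (position 0.71). Ifit3 had 3.44 FPKM with compound 13, 7.46 and 6.87 with LPS alone and 1.80 and 1.98 in the control, with the lowest position of the list among genes that LPS raised by at least 1 on the log2 scale (0.41). Ifit3 and its copy Ifit3b (0.60) may share reads. Other low positions were those of the DNA sensor family genes Ifi204 and Ifi211 and of the exonuclease Isg20 (0.48 each). At the other end, Bst2, the tether of budding viruses, had 319 FPKM with compound 13, 333 and 313 with LPS alone and 71.2 and 80.5 in the control (0.99), and Ifitm3, which blocks viral entry, stood at 1.01. Its relative Ifitm1 is not in this list, stood at a position of 0.04 and is described with the genes at control level. Among the 43 genes of the list that LPS raised by at least 1, the median position was 0.78 and 26 (60.5%) were under 0.8, against 89 of the other 454 such genes (19.6%), or 78 of 443 (17.6%) without genes read almost only in the LPS model. Position was computed from the same 5 libraries for all genes and this difference was not tested.

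**Figure D3:**
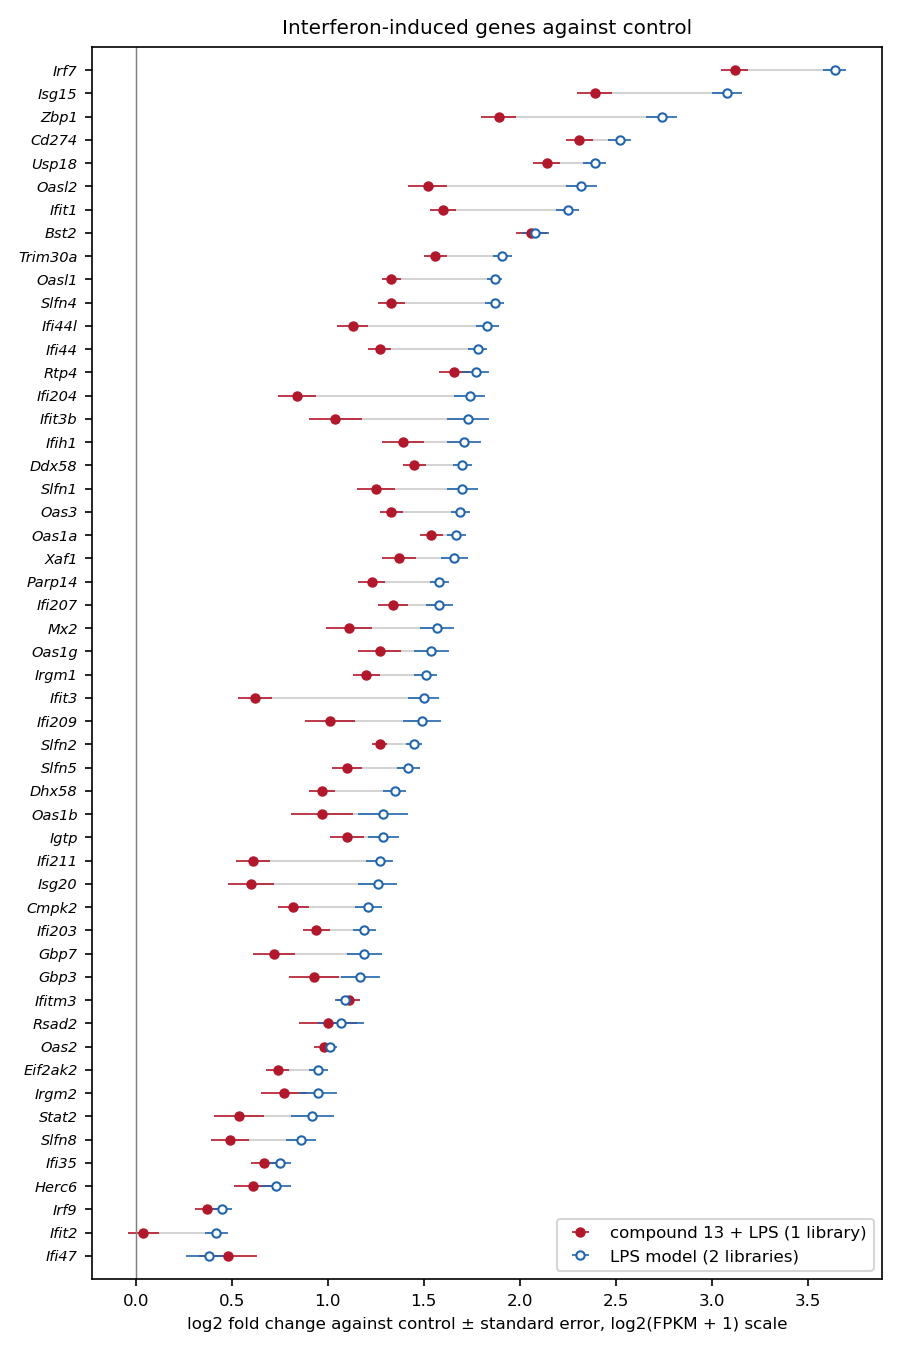
Log2 fold change against control, with its standard error, of 52 of the 53 tested interferon-induced genes on the log2(FPKM + 1) scale, ordered by the change with LPS alone. Filled points are compound 13 with LPS and open points the LPS model. The filled point lies left of the open point for nearly every gene, widely for Zbp1, Ifi204 and Ifit3 and hardly for Bst2, Oas2 and Ifitm3, and only Ifit2 reaches control level.

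The promoters of Isg15, Ifit1 and Ifit3 are shown as examples that carry ISRE letters, and the promoters found for Irf7 and Oasl2, also below LPS alone, held none of the motifs searched in the same 250 bases. The motif searched was GAAA repeated after any pair of bases, on both strands, and capitals mark its matches. In Isg15 there are 3 overlapping matches that begin 78, 72 and 66 bases before the start site, in Ifit1 matches begin 104 and 85 bases before it, and in Ifit3 156 and 122 bases before it. Capitals in Ifit3 also mark an AP-1 motif, TGANTCA, 56 bases before the start. The 250 bases before each start site are from RefSeq on GRCm38.p6, for Isg15 chr4:156200819-156201068 on the minus strand, for Ifit1 chr19:34640639-34640888 and for Ifit3 chr19:34583279-34583528, both on the plus strand. The 3 genes were chosen after their values were seen.
Isg15: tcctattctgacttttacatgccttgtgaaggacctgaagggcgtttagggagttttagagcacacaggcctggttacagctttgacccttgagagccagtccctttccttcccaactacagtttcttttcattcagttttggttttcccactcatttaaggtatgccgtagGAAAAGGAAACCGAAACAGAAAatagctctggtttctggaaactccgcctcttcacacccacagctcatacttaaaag
Ifit1: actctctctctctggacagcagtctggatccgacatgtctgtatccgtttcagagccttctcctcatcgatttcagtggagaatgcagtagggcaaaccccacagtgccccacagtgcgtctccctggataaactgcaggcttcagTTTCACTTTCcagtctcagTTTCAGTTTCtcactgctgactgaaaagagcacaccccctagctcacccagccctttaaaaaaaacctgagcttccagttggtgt
Ifit3: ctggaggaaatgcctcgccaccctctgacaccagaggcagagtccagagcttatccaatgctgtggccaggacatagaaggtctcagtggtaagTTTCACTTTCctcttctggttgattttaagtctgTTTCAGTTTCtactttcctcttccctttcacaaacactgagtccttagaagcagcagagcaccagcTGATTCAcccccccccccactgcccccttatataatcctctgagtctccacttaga
Promoters were found for 43 of the 53 interferon-induced genes, and 27 of their 51 promoters (52.9%) held the ISRE letters, where 3.44% of all 32851 promoters of the table did. Of promoters of genes still on 10.3% held them, and of those of genes still repressed 3.06%. Of the 15 promoters found for genes at control level 0 held them. The interferon list was chosen for genes of this response, so the share describes the list.

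MHC class I and peptide loading genes, which interferon also induces, rose in 7 of 9 tested, while Psmb9 fell and Psmb10 was not called, but rescaled by the median of ratios 2 of them rose and 4 fell (3 and 5 after quantile rescaling). Of all tested genes 68.1% were higher, and the list median of 0.83 turned to −0.19 and −0.25 under the rescalings. Tap1, the peptide transporter, had 9.16 FPKM with compound 13, 12.2 and 12.6 with LPS alone and 6.71 and 7.20 in the control, a position of 0.47, and was called lower than with LPS alone (adjusted p = 0.0466). H2-T22 and H2-T24 were also called lower than with LPS alone but were 1.01 and 2.30 above control on the log2 scale. Psmb9, a subunit of the immunoproteasome, had 4.06 FPKM with compound 13, 5.04 and 5.15 with LPS alone and 5.10 and 5.53 in the control (log2 fold change −0.32, adjusted p = 0.0147 from limma), where it was not called with LPS alone. The H2-Q and H2-T genes are near-identical copies, so their reads may be split.

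Costimulatory and adhesion genes were higher than control in 6 of 7 tested and 1 was lower (6 and 5 higher after the rescalings, 1 lower in each). Cd83 and Cd80, which mark activated antigen-presenting cells, rose by 1.89 and 1.88, and Cd274, the checkpoint ligand PD-L1, had 10.9 FPKM with compound 13, 12.5 and 12.96 with LPS alone and 1.383 and 1.404 in the control (2.31). Cd276, another B7 family gene, was still repressed (−1.4). Matrix and protease genes were higher than control in 14 of 15 tested (12 and 10 after the rescalings, with 0 and 2 lower), a median of 1.78, but 5 of the 15 were called lower than with LPS alone, or 4 of 14 without Sparc, which is read almost only in the LPS model. Mmp9, a gelatinase, had 15.7 FPKM with compound 13, 20.2 and 19.7 with LPS alone and 0.0683 and 0.0331 in the control (log2 fold change 3.99, standard error 0.08). Mmp13, a collagenase, had 14 reads with compound 13, 60 and 65 with LPS alone and 1 and 3 in the control (log2 fold change 0.32, limma adjusted p = 0.0335, position 0.27). Its ratio of reads to control was 6.87 (95% counting interval 2.16 to 28.7), which the log2(FPKM + 1) scale compresses. Timp1, an inhibitor of these proteases, stood midway with 35 reads with compound 13, 88 and 70 with LPS alone and 9 and 7 in the control (position 0.54). Serpinb2, an inhibitor of plasminogen activators, had 209 reads with compound 13, 299 and 294 with LPS alone and 0 in both control libraries, at least 137-fold above control.

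Metabolic genes of the activated macrophage were still on. Acod1, which makes itaconate, had 372 FPKM with compound 13, 415 and 418 with LPS alone and 4.67 and 4.26 in the control (log2 fold change 6.09, standard error 0.06, limma adjusted p = 6.67e-07). All 8 tested genes of glycolysis and hypoxia were higher (4 after either rescaling, with 0 and 1 lower), among them the hexokinase Hk3 (1.49) and the growth factor Vegfa (1.47). Antioxidant and NRF2 genes were higher in 11 of 12 tested (7 after either rescaling, with 2 and 3 lower), with a median of 1.29 and, unlike most lists, a treated value above both LPS model libraries in 6 of 12, where 19.4% of all tested genes had one. Prdx1, a peroxiredoxin, had 1551 FPKM with compound 13, 1388 and 1407 with LPS alone and 270 and 285 in the control (2.48). Hmox1, heme oxygenase 1, had 544 FPKM with compound 13, 569 and 574 with LPS alone and 127 and 135 in the control (2.05), and Slc7a11, the cystine transporter, rose by 2.82. Mt1, a metallothionein, was called with compound 13 and LPS at 219.6 FPKM, against 183 and 179 with LPS alone and 157 and 173 in the control (0.41, adjusted p = 0.00237 from limma). It was not called with LPS alone in the deposited scale. The Mt1 change of 0.41 was smaller than the rescaling shift of the median over all tested genes (0.82 to 0.02 and 0.13). Its value after rescaling is not given here. All 8 genes of amino acid stress were higher (4 after either rescaling, with 2 and 0 lower), led after Slc7a11 by the factors Atf5 (1.53) and Trib3 (1.48).

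Cholesterol and lipid genes were the only list described here with a negative median. Of 18 tested, 15 were lower than control, 2 were higher (Cd36 and Plin2) and Abcg1 was not called, with a median of −0.79 with compound 13 and −0.62 with LPS alone (16 lower and 1 higher after the median of ratios, 17 and 0 after quantile rescaling). Hmgcs1, an early enzyme of cholesterol synthesis, had 22.6 FPKM with compound 13, 23.8 and 25.1 with LPS alone and 58.2 and 59.0 in the control. Its log2 fold change was −1.33 (standard error 0.06, limma adjusted p = 1.89e-05). Stard4, a sterol carrier, fell by 1.04. Srebf2, which encodes the factor that drives these genes, had 39.1 FPKM with compound 13, 45.4 and 44.4 with LPS alone and 64.7 and 70.9 in the control (−0.78). The treated library lay below both LPS model libraries for 18 of the 18, where 62.5% of all tested genes lay below both, and 1 of the 18, Cd36, was called lower than with LPS alone. Their median log2 difference from LPS alone was −0.11, against −0.08 over all tested genes, and 0.05 in both after the median of ratios. Cd36, a scavenger receptor for oxidized lipid, and Plin2, which coats lipid droplets, were 1.14 and 1.2 above control, but Cd36 turned to −0.27 after quantile rescaling.

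**Figure D4:**
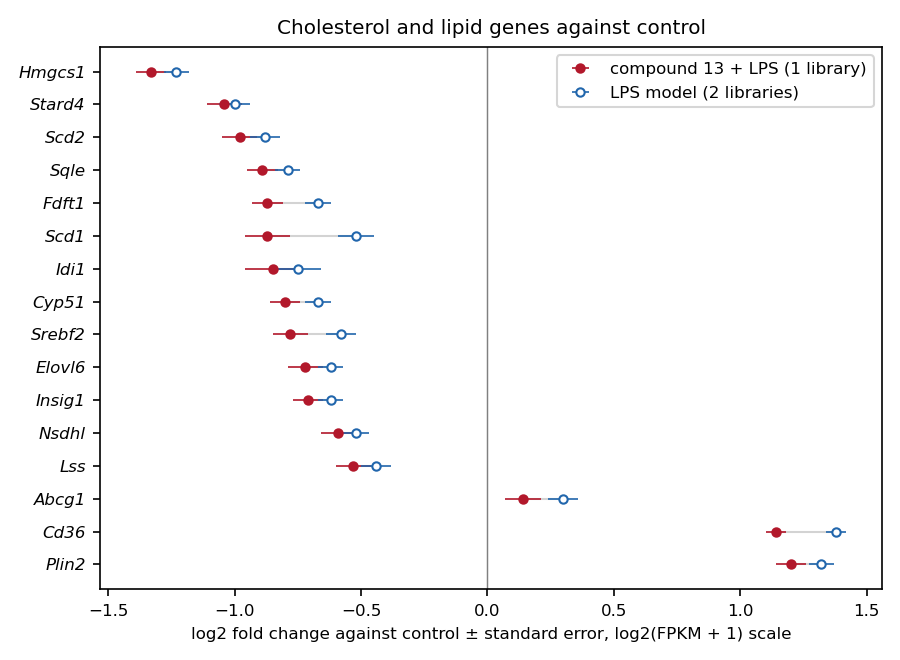
Log2 fold change against control, with its standard error, of 16 of the 18 tested cholesterol and lipid genes on the log2(FPKM + 1) scale, for compound 13 with LPS (filled) and the LPS model (open). The synthesis genes, from Hmgcs1 (−1.33) to Lss (−0.53), lie left of 0 with the filled point further left than the open one, and Plin2 and Cd36 lie on the right.

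Among the 10 largest falls below control, after Hpgd came Tmem176b, a membrane protein of antigen-presenting cells, with 1.62 FPKM with compound 13, 3.25 and 2.48 with LPS alone and 11.6 and 10.8 in the control (−2.22). S1pr1, a receptor of sphingosine 1-phosphate that guides egress of immune cells, had 0.90 FPKM with compound 13, 0.633 and 0.711 with LPS alone and 6.24 and 8.41 in the control (−2.12). Itga4, the α4 integrin, had 22.5 FPKM with compound 13, 23.98 and 24.15 with LPS alone and 103 and 96.8 in the control (−2.10, standard error 0.06, limma adjusted p = 6.82e-06). The treated values of S1pr1 and Itga4 lay near the LPS model and overlapped the control nowhere. Fgd2, an exchange factor for CDC42, Cst7, cystatin F, and Igfbp4, which binds insulin-like growth factors, fell by 2.06, 2.06 and 2.04. Olfml3 (−2.11), Itgb5, the β5 integrin (−2.0), and St6gal1, a sialyltransferase (−1.96), completed the 10. Over all listed genes, 14 had at least 10 reads in both control libraries and at most 3 with compound 13.

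Of 8 integrin subunits tested 5 were higher and 3 lower, near the shares of all tested genes (68.1% and 23.9%), with 3 and 3 after the median of ratios and 3 and 4 after quantile rescaling. Their median of 1.07 turned to −0.19 after quantile rescaling. The leukocyte integrins Itgax (1.92), Itgam (1.65) and Itgb2 (1.26, but −0.26 after quantile rescaling) were up, and Itga6 was the third that fell. Itga6, which pairs with β1 or β4, had 2.58 FPKM with compound 13, 3.84 and 3.46 with LPS alone and 3.79 and 3.61 in the control (−0.39, adjusted p = 0.0107 from limma) and was not called with LPS alone. Of macrophage identity and scavenger genes 7 of 11 tested rose and 4 fell, where 68.1% and 23.9% of all tested genes did, and 2 rose and 5 fell after the median of ratios (3 and 5 after quantile rescaling). Their median of 0.73 turned to −0.16 and −0.01. Fcgr1, the high-affinity receptor of IgG, had 10.02 FPKM with compound 13, 13.4 and 14.1 with LPS alone and 14.4 and 16.6 in the control (−0.58, adjusted p = 0.00255). Axl, a receptor that clears apoptotic cells, had 46 reads with compound 13, 120 and 93 with LPS alone and 82 and 107 in the control (−0.46, adjusted p = 0.0228), and its ligand Gas6 was still repressed (−0.85). Fcgr1 and Axl were lower in the treated library than in any other, and neither was called with LPS alone in the deposited scale. Genes of alternative activation rose in 4 of 5 tested and fell in Klf4 (1 higher and 1 lower after the median of ratios, 2 and 1 after quantile rescaling), with Tgfb1 at 1.24. Osteoclast and lysosome genes rose in 6 of 8 (5 after either rescaling, with 2 and 3 lower), among them Acp5 (1.81), and Tfeb fell by 1.00. Complement and coagulation genes rose in 5 of 6 (2 higher and 2 lower after either rescaling), led by Procr, the protein C receptor (3.22). Of all tested genes 68.1% were higher, so the counts of alternative activation, osteoclast and complement genes describe the selected table.

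A gene was placed at control level when LPS raised or lowered it by at least 1 on the log2 scale and the library with compound 13 was not called against control and differed from it by under 0.5. This held for 19 genes, all raised by LPS, and for none that LPS lowered. They were Cav1, Cnn3, Cpe, Gm13400, Gpx8, Gstm2, Ifitm1, Igfbp6, Krt8, Krt18, Krt19, Laptm4b, Ly6a, Ly6c1, Nedd4, Nrn1, Ptrf, Serpinh1 and Sparc. By this rule they lie below LPS alone, so that difference is no separate result, and 11 and 10 of them remained at control level after the median of ratios and quantile rescaling. Limma-voom on recovered reads, run on listed genes with at least 10 reads summed over the libraries, placed 114 genes at control level by the same rule. In the library with compound 13 the 19 genes had few reads, 0 in 10 of the 19, at most 5 in 16 and 19 at most, and no control library exceeded 10. The half-width of the 95% interval of the log2 difference from control ran from 0.29 to 0.93. It rests on the spread of the replicated libraries and the prior of the fit, and not on read depth. For the 6 genes with 0 reads with compound 13 and in both controls, only the LPS model libraries differed. Differences smaller than the half-width were not resolved by this fit.

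Krt8, a keratin of simple epithelia, had 0 reads with compound 13, 361 and 196 with LPS alone and 0 in both control libraries. Its partner keratins Krt18 and Krt19 had 0 reads with compound 13 and in the control, but 102 and 71 reads of Krt18 and 129 and 97 of Krt19 in the LPS model. Serpinh1, a chaperone of collagen, had 0 reads with compound 13, 286 and 197 with LPS alone and 1 and 0 in the control. All 4 were off in the treated library and on in both LPS model libraries. Sparc, a matrix protein of connective tissue, had 0 reads with compound 13, 193 and 117 with LPS alone and 0 and 1 in the control, and Cav1, the caveolar coat protein, 0 reads with compound 13, 75 and 58 with LPS alone and 0 in the control. Ptrf, which also builds caveolae, had 5 reads with compound 13, 182 and 116 with LPS alone and 0 and 3 in the control. These treated values lay within or beside the control and far below both LPS model libraries. Ly6a, a surface antigen of stem and immune cells, had 0 reads with compound 13, 147 and 79 with LPS alone and 1 and 1 in the control, and Ifitm1, an antiviral membrane protein, had 4 reads with compound 13, 132 and 100 with LPS alone and 0 and 5 in the control. Cpe, a carboxypeptidase of hormone processing, was the gene with most reads in the treated library, 19, against 69 and 54 with LPS alone and 8 and 6 in the control (limma adjusted p = 0.0676). The ratio of reads of Cpe to control was 2.67 (95% counting interval 1.27 to 5.75), so it met the rule for control level although its reads exceeded both control libraries.

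Several measures moved with these genes, and their part in the result was not tested. LPS model replicate 1 was above replicate 2 in 19 of the 19. The share over all tested genes is not given here, so this count cannot be called particular to the class. All 19 reached the filter through the LPS model libraries only. Of the 10 epithelial markers looked up, Krt8, Krt18 and Krt19 are listed, with a summed FPKM of 0 with compound 13, 19.6 and 12.5 with LPS alone and 0 in both control libraries. Of 9 fibroblast and matrix markers, Sparc, Col3a1 and Fn1 are listed, with sums of 0 with compound 13, 3.59 and 2.40 with LPS alone and 0 and 0.0155 in the control. Of 6 endothelial markers, Cav1, Kdr and Cdh5 are listed, with sums of 0.275 with compound 13, 1.71 and 1.43 with LPS alone and 0.0633 and 0.0279 in the control. Cdh5 did not follow this sum and stood near the LPS model. It had 17 reads with compound 13, 17 and 21 with LPS alone and 3 and 2 in the control. Defining epithelial, fibroblast and endothelial markers outside the listed genes, such as Epcam, Col1a1 and Pecam1, were not analysed here, and none of the lymphocyte and erythroid markers is listed. Of the 19 genes, 11 had the read pattern of the LPS model alone (10 reads or more in both of its libraries and 3 or fewer elsewhere), and 8 were at control level without them. Without LPS model replicate 1 or replicate 2, 0 and 1 genes were at control level, since most of the 19 then reached an FPKM of 1 in a single library and were not tested, and 16 and 18 were when the tested genes were kept. No listed gene had the reverse pattern of reads almost only in the library with compound 13. The submitters chose the genes and 96.1% of those tested were called with LPS alone against control, so this absence describes the selection.

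**Figure D5:**
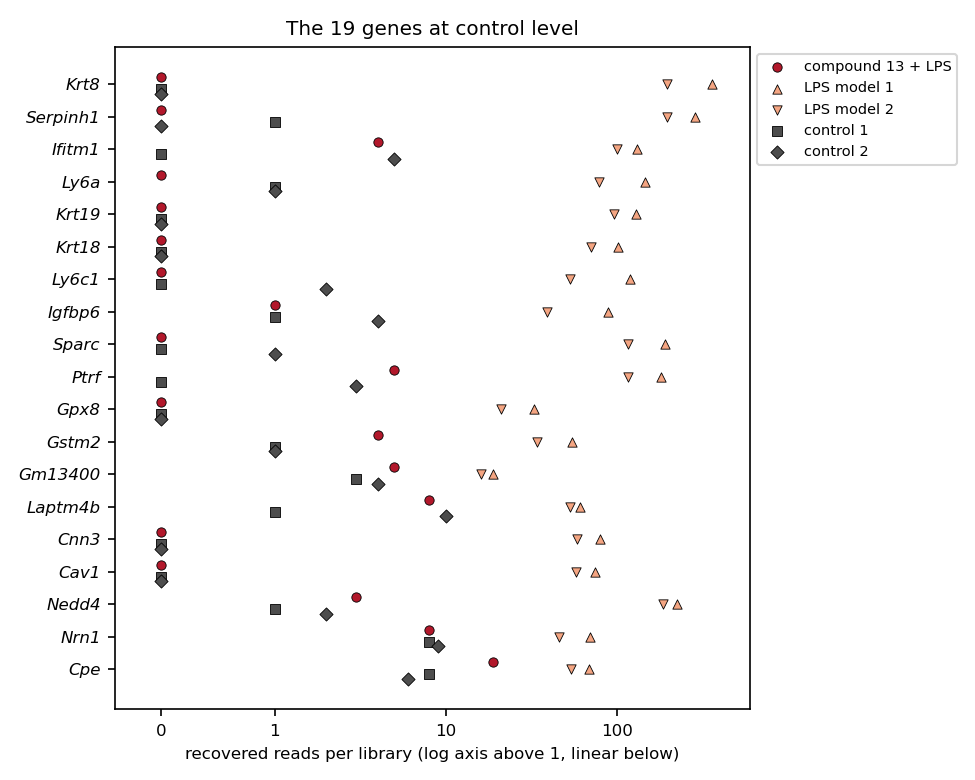
Recovered reads of the 19 genes at control level in each library, on an axis that is logarithmic above 1 read and linear below, ordered by the change with LPS alone. The circle is compound 13 with LPS, triangles are the LPS model libraries and grey symbols the control libraries. The circle lies at 0 for 10 genes and highest for Cpe, at 19 reads to the right of its control symbols at 8 and 6, while every LPS model library holds at least 16 reads.

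Among the remaining genes called in the deposited scale with compound 13 and LPS but not with LPS alone was Hexim2, an inhibitor of transcription elongation. Hexim2 had 33 reads with compound 13, 68 and 55 with LPS alone and 54 and 70 in the control (−0.49, adjusted p = 0.0176 from limma). Cacng8 and H2-Q1 were each 0.45 above control, but both turned below 0 after either rescaling.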

How the data were processed

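The series holds 5 RNA-seq libraries of RAW264.7 cells, made with a stranded kit from total RNA. Per the labels, reads were trimmed with Trimmomatic 0.32, aligned with HISAT2 2.1.0 to mm10 and handled with SAMtools 1.4, and DESeq2 is named among the submitters' tools. Whether counting used strand is not given in the sources used here, so overlapping and antisense genes cannot be told apart. The authors' deposited table gives log2 FPKM of 1489 selected genes, and an exact 0 stands for no reads. Values were returned to FPKM with these 562 zeros at 0. Depth was found as the total at which low values, multiplied by GENCODE mouse release 21 exon length, came within 0.1 of whole reads (97.17% to 99.24% of low values, at most 60.87% at other depths). Totals range over 16169000 to 17142000 reads.

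Limma 3.58.1 in R 4.3.3 was fitted with a mean-variance trend to log2(FPKM + 1) in 3 groups over all 5 libraries, with 2 residual degrees of freedom and 2.97 prior ones. Genes had to reach an FPKM of 1 with compound 13 or in any 2 libraries (1053 genes), and p-values were Benjamini-Hochberg adjusted over all of them. In data simulated for compound 13 with LPS against control (1079 genes, 200 changed), changes of 1.5, 2 and 4 fold were called in 64.6%, 95.1% and 100% and unchanged genes in 0.563%. Simulated reads had a variance of 2 times the mean, and control and LPS model libraries were given the same mean. Changed genes were taken only from those above a minimum of expected reads. These rates therefore do not describe low genes, the class at control level or the real spread between libraries. Read ratios carry exact 95% counting intervals, and a fold against 0 control reads uses 3 reads over the group. The rescaling by median of ratios and by quantiles, other filters, a pseudocount of 0.1, limma-voom on recovered reads, a replicate block and leaving out replicates were tried. Tables were handled with Python 3.11.15, numpy 2.4.6, pandas 2.3.3 and scipy 1.17.1, and plots drawn with matplotlib 3.10.9. Promoters came from RefSeq on GRCm38.p6 and were matched by symbol. A few genes that were tested and counted are not reported here by name.

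The gene groups, lists and tests were chosen with earlier results of these data known. Named were genes the study measured, up to 3 called genes per list and direction with the largest change, the 10 largest changes each way, the 10 genes at control level with the largest LPS change, genes called opposite to LPS and markers of other cells. Named outside this rule, after their values were seen, were Abcg1, Atf3, Bst2, Ccl3, Ccl4, Ccl6, Ccl9, Cd40, Cd80, Cnn3, Cpe, Cx3cl1, Cxcl1, Cxcl5, Dusp1, Dusp6, Eif4ebp1, Gch1, Gpx8, Gstm2, Ifi204, Ifi211, Ifit1, Ifit2, Ifit3, Ifit3b, Ifitm3, Il1a, Il1f6, Isg20, Jun, Klf6, Laptm4b, Lss, Maff, Mmp13, Mt1, Nedd4, Nfkbia, Nrn1, Oas2, Oasl2, Osm, Psmb10, Serpinb2, Srebf2, Tap1, Timp1, Zbp1 and Zfp36.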

Additional observations from a re-analysis of the deposited data

How the results depend on the processing

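Of 112 tested genes named by the rule, 93 kept their direction and side of the threshold under every alternative run. Genes named outside the rule, Eif4ebp1 and Mt1 among them, are not in this count or in the turned directions of single genes below. Against 717 genes higher with compound 13 than control, a filter of FPKM 10 gave 389, the median of ratios 358, quantile normalization 403 and a minimum log2 change of 1 gave 415. Against 252 lower, the filter gave 94 and the minimum change 113. For the 713 still on these settings gave 388, 331, 374 and 389, and for the 242 still repressed the filter gave 91 and the minimum change 104. For the 19 at control level the filter gave 0, the median of ratios 12, quantile normalization 11, limma-voom 114 and removal of the genes read almost only in the LPS model 8. The larger filter tests fewer genes by construction, and the cause of the other shifts was not tested. Leaving out one replicate gave 696 to 699 higher, 182 to 251 lower, 691 to 694 still on, 173 to 239 still repressed and 0 to 22 at control level. Without control replicate 1 or 2 the genes lower were 185 and 182 and those still repressed 175 and 173. Limma-voom on recovered reads called 903 higher and 309 lower. Replicate numbers did not pair libraries (correlation −0.02 over 1053 genes, 2 pairs), and the fit with a replicate block gave 716 higher, 254 lower, 712 still on, 241 still repressed and 22 at control level. Directions turned for Itgb2 (−0.26) and Cd36 (−0.27) under quantile normalization, Cd14 (−0.07) under the median of ratios, and Pik3ap1 (−0.23 and −0.41), Cacng8 (−0.23 and −0.03) and H2-Q1 (−0.05 and −0.03) under both, and for the list medians of TLR genes (−0.14, median of ratios), integrins (−0.19, quantile), MHC class I (−0.19 and −0.25) and macrophage identity (−0.16 and −0.01). One library with compound 13 and a table of selected genes limit every comparison.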
